A study of Homo sapiens with 15 samples.

Results

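SNB19 is an established human glioblastoma cell line, and the comparison described here sets cells given a mutant short form of the transcription factor ZBTB18 against cells given the empty lentiviral vector pCHMWS. The libraries were chosen by their labels: 3 named SF-mut and 3 named EV, 6 of the 15 in the series. The other 9 are 3 each of full-length ZBTB18 (FL), its mutant (FL-mut) and the short form without the mutation (SF-Nte), and they served for the tests of SF-mut against each of them. All 5 groups were SNB19 cells grown in DMEM with 10% FBS and transduced with the same vector backbone, so even the controls carry a lentiviral insertion. The labels give neither the mutated residues, nor the time after transduction, nor whether the replicates were separate cultures, so p-values measure the spread between these libraries, which may be technical.

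ZBTB18 is a zinc finger protein of the BTB family that binds DNA through its zinc fingers and recruits corepressors to silence transcription. It is known for its part in brain development and as a repressor of mesenchymal genes in glioblastoma. The comparison asks what the mutant short form changes in the transcripts of these cells relative to the vector alone.

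Poly(A) RNA was read as cDNA on an Oxford Nanopore platform and deposited as counts per gene symbol. Levels below are CPM, counts scaled to a common library total with TMM factors, in the order of replicates 1, 2 and 3. Total counts were 597414, 315693 and 521025 in SF-mut, against 1930245, 1371908 and 1274474 in EV, and between 8177 and 10114 genes had a count in an SF-mut library against 11936 to 13203 in EV. A single gene at 0 in SF-mut could thus still be present: 3 counts over the group correspond to 2.11 CPM in SF-mut and 0.667 CPM in EV. SF-mut replicate 2 was the shallowest library and stood apart. Its log CPM correlated with the other SF-mut libraries at 0.7006 and 0.6916 across genes, where those 2 libraries correlated at 0.8276 and the EV libraries at 0.8518 to 0.9023 among themselves, and the mean GC content of its reads' transcripts was 50.56% against 48.67% and 48.44%. The sample sheets list the SF-mut barcodes with a suffix and together with SF-Nte, so SF-mut may have been sequenced apart from EV, and such a run cannot be told apart from the construct.

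The transduced gene was read in every library. ZBTB18 stood at 853, 3631 and 896 CPM in SF-mut and at 7.002, 4.371 and 7.123 CPM in EV. The groups did not overlap, and replicate 2 held over 4 times the level of the other SF-mut libraries. ZBTB18 rose by 8.147 ± 1.024 (log2 fold change ± SE, n = 3 against 3, edgeR quasi-likelihood test, adjusted p = 0.00462), and it passed the test with any 1 of the 6 libraries left out, with changes from 7.094 without SF-mut replicate 2 to 8.349. The short form without the mutation was less abundant, at 470, 199.5 and 234.1 CPM, and the difference of 2.57 ± 0.773 between the short forms did not pass (adjusted p = 0.574). Counts of the gene do not distinguish the vector's ZBTB18 from the cell's own, nor the forms from each other.

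Beside ZBTB18, 3 genes changed between SF-mut and EV. All of them fell: PGRMC1, which encodes a haem-binding membrane protein that takes part in sterol synthesis, SQSTM1, which encodes the autophagy receptor p62, and MRNIP, whose product works with the MRN complex that senses DNA breaks. Of 6767 genes tested, 4 (0.0591%) passed an adjusted p of 0.05, 1 higher (0.0148%) and 3 lower (0.0443%). A raw p under 0.05 was reached by 363 genes (5.36%): 108 were higher (1.6%) and 255 lower (3.77%). Both directions together make a share close to the 5% that this threshold gives when nothing differs, though lower genes outnumbered higher ones. Such a share does not show that nothing differs. The libraries of the groups did not overlap for 196 genes that were higher in SF-mut (2.9%) and 520 that were lower (7.68%). The median log2 fold change over all genes was -0.02, and 3275 genes lay above 0 (48.4%) and 3489 below (51.6%).

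**Figure D1:**
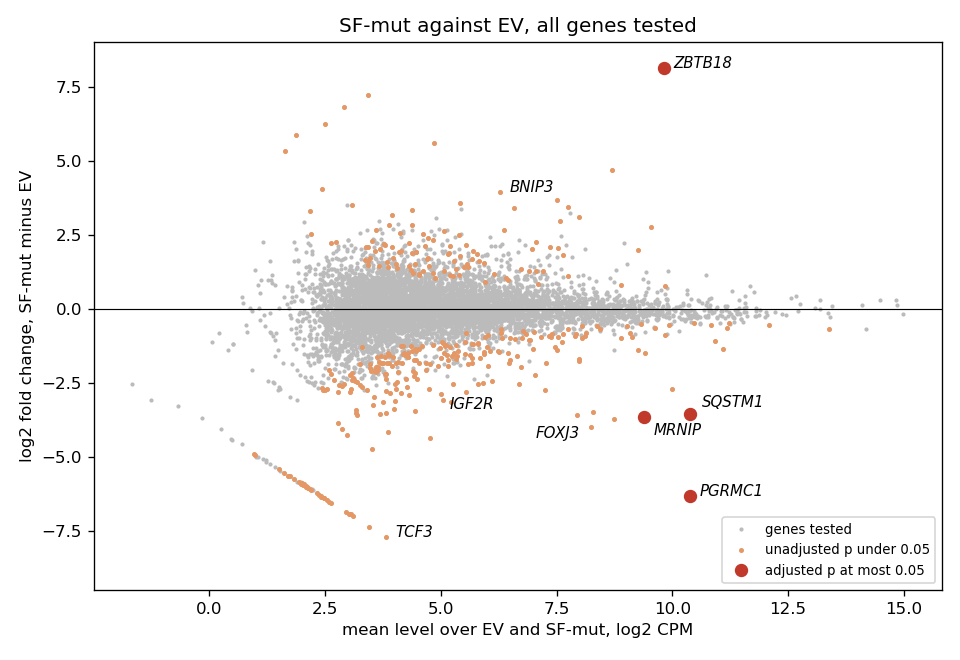
Log2 fold change of SF-mut minus EV (vertical axis) against the mean level over both groups in log2 CPM (horizontal axis) for the genes tested, 1 point a gene; genes at 0 in all 6 libraries are not drawn. The 4 genes past an adjusted p of 0.05 are drawn large: ZBTB18 above, and PGRMC1, SQSTM1 and MRNIP below; the diagonal row of points at the lower left holds genes at 0 in all 3 SF-mut libraries, TCF3 among them.

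PGRMC1 had the largest decrease of the 3. It stood at 1868, 4491 and 1571 CPM in EV and at 55.56, 18.49 and 20.5 CPM in SF-mut, so that even the lowest EV library held far more than the highest SF-mut library. The SF-mut levels rest on 34, 6 and 10 counts against 3735, 6165 and 1764 in EV. The gene fell by 6.334 ± 0.987 on the log2 scale (edgeR adjusted p = 0.0221), 80.7-fold. Without SF-mut replicate 1, 2 or 3 the change was -7.17, -6.108 or -6.167, and the adjusted p was 0.0618, 0.165 or 0.229. PGRMC1 was also low with the other constructs, at 115.6, 575.9 and 24.9 CPM in SF-Nte, 192.8, 436.6 and 288.4 in FL and 110.1, 38.48 and 165.9 in FL-mut. SF-mut minus SF-Nte was -2.874 ± 0.875 on the log2 scale (95% interval -4.732 to -1.015), which did not pass over all genes (edgeR adjusted p = 0.574). Against FL the difference was -3.222 ± 0.88 (edgeR adjusted p = 0.133) and against FL-mut -1.687 ± 0.853 (edgeR adjusted p = 0.543).

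PGRMC1 lies on chromosome X at 119236245 to 119244466 on the plus strand (GENCODE 29, GRCh38). The stretch just upstream of its exons, X:119236035-119236244, plus strand, from RefSeq's promoters on GRCh38.p14, is shown because this gene had the largest decrease. It is GC-rich and, read 5′ to 3′, runs:
PGRMC1 upstream: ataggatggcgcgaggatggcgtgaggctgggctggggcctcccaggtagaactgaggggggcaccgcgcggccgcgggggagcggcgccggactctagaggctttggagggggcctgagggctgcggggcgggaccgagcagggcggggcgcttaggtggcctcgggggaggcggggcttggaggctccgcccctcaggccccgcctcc
The letters ACATCTG, the core of the site that ZBTB18 is known to bind, do not occur in it on either strand. They were searched for in the 250 bases before each RefSeq gene start, and 76 of 5283 promoters of tested genes (1.44%) held them. None of PGRMC1, SQSTM1 and MRNIP did, nor did FOXJ3, IGF2R or TCF3. Among genes at an unadjusted p under 0.05, 1 of 206 promoters of lower genes (0.485%) and 1 of 86 of higher genes (1.16%) held them. ZBTB18's own promoter had a match, 98 bases before its start. The 1 match among the higher genes was this promoter, that of the transduced gene itself. A match is a description of the letters, and its absence says only that they are not in this window.

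SQSTM1 and MRNIP are neighbours on chromosome 5 that overlap tail to tail. SQSTM1 (179806398 to 179838078, plus strand) and MRNIP (179835133 to 179862173, minus strand) share 2946 bases, of which 1582 are exonic in both, 20.7% of the exonic bases of SQSTM1 and 18.6% of those of MRNIP. SQSTM1 stood at 1457, 5102 and 821.8 CPM in EV and at 258.2, 200.3 and 170.2 CPM in SF-mut. MRNIP stood at 767.2, 2513 and 442.5 CPM in EV and at 106.2, 111 and 77.91 CPM in SF-mut. For both genes replicate 2 was the highest EV library and no SF-mut library reached the lowest EV library.

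SQSTM1 fell by 3.55 ± 0.575 on the log2 scale (11.7-fold, edgeR adjusted p = 0.0245) and MRNIP fell by 3.658 ± 0.572 (12.6-fold, edgeR adjusted p = 0.0221). Whether the authors' counting used strand is not given in the sources used here, so reads of the shared exons cannot be assigned to either gene. The ratio of MRNIP to SQSTM1 counts was 0.526, 0.493 and 0.538 in EV, 0.411, 0.554 and 0.458 in SF-mut and 0.64, 0.708 and 0.702 in SF-Nte. The ratio thus moved little in EV and SF-mut, where each gene varied more than 10-fold, and the genes cannot be counted as 2 independent results. With 1 SF-mut library left out the change of SQSTM1 was -3.846, -3.537 or -3.513 and its adjusted p 0.0757, 0.165 or 0.229, and for MRNIP the change was -3.838, -3.766 or -3.614 with an adjusted p of 0.0757, 0.152 or 0.229. Without EV replicate 2, the highest library, the changes shrank to -2.516 and -2.702 and still passed (edgeR adjusted p = 0.0362 and 0.0312). Fitted on SF-mut and EV alone, the changes were -3.518 for SQSTM1 and -3.622 for MRNIP, and neither passed (edgeR adjusted p = 0.442 and 0.374).

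Both genes were as low in the short form without the mutation. SQSTM1 stood at 165.7, 167.5 and 117 CPM in SF-Nte and MRNIP at 105.9, 118.6 and 82.17 CPM. The difference between SF-mut and SF-Nte was 0.48 for SQSTM1 (95% interval -0.658 to 1.62) and -0.06 for MRNIP (95% interval -1.205 to 1.082). In FL, SQSTM1 stood at 1882, 2542 and 1086 CPM, and SF-mut minus FL was -3.128 ± 0.565 for SQSTM1 (edgeR adjusted p = 0.0204) and -3.268 ± 0.563 for MRNIP (edgeR adjusted p = 0.0166). Both groups of short-form libraries stand on the second sample sheet, and the part of a shared run in these values was not tested.

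**Figure D2:**
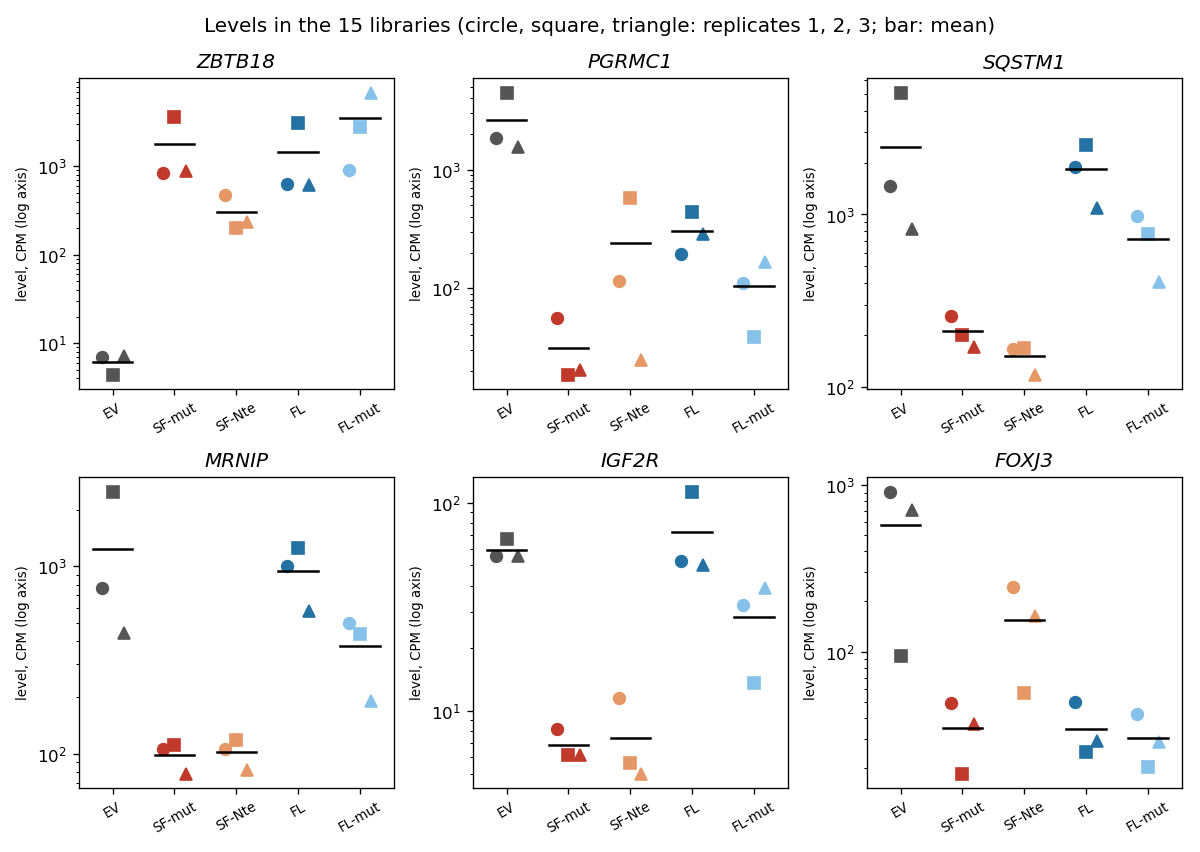
Levels of 6 genes in the 15 libraries, in CPM on a log axis, by group; circles, squares and triangles are replicates 1, 2 and 3, and the bar is the mean. The SF-mut libraries lie above EV for ZBTB18 and below every EV library for PGRMC1, SQSTM1, MRNIP, IGF2R and FOXJ3; SF-Nte lies near SF-mut for SQSTM1, MRNIP and IGF2R.

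The 5 genes of next lowest p on the lower side missed the threshold in edgeR's test with the filter on low counts. All 5 passed with DESeq2 (adjusted p = 0.00481 for IGF2R, 2.13e-05 for FOXJ3, 0.00598 for TCF3, 0.00921 for GSR and 0.000535 for VOPP1). All 5 also passed edgeR's test with no filter. None passed edgeR's test on SF-mut and EV alone, where the adjusted p in the same order was 0.342, 0.586, 0.374, 0.919 and 0.159. Nor did any pass with 1 SF-mut library left out (edgeR adjusted p from 0.114 to 0.485). IGF2R, the receptor that carries lysosomal enzymes and clears IGF2, stood at 55.51, 67.02 and 55.2 CPM in EV and at 8.17, 6.165 and 6.151 CPM in SF-mut. The replicates of each group were close to each other, and the change of -3.071 ± 0.567 had an edgeR adjusted p of 0.0691. Only 5, 2 and 3 counts stand behind its SF-mut levels, and it overlaps the antisense gene AIRN. IGF2R was at 11.56, 5.646 and 4.98 CPM in SF-Nte, and it passed in SF-mut against FL (-3.348 ± 0.57, edgeR adjusted p = 0.0166).

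FOXJ3, a forkhead transcription factor, stood at 912.7, 93.98 and 707.8 CPM in EV and at 49.02, 18.49 and 36.91 CPM in SF-mut. EV replicate 2 was far below the other EV libraries but above all SF-mut libraries, and the change was -3.999 (edgeR adjusted p = 0.0691). Without that library it passed (adjusted p = 0.0079). FL and FL-mut were at similar levels to SF-mut, and SF-mut differed from FL by 0.03 ± 0.693.

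TCF3, which encodes the E-proteins E12 and E47, had no count in any SF-mut or SF-Nte library, against 22.5, 27.68 and 34.72 CPM in EV. It was at least 13.4-fold lower in SF-mut, taking 3 counts over the group as its floor, and its edgeR adjusted p was 0.0956. GSR, the enzyme that reduces glutathione, stood at 52.01, 94.71 and 52.53 CPM in EV and at 17.97, 6.165 and 8.201 CPM in SF-mut (-2.544 ± 0.525, edgeR adjusted p = 0.145). VOPP1, a gene of vesicle membranes, stood at 442.6, 693.5 and 579.6 CPM in EV and at 63.73, 18.49 and 67.66 CPM in SF-mut (-3.483 ± 0.72, edgeR adjusted p = 0.145). In none of these 5, picked by low p, did the groups overlap, which held for 7.68% of all genes on the lower side.

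Complete loss of counts was not limited to TCF3. Of the genes tested, 56 had no count in the 3 SF-mut libraries, and 15 of these had a mean of at least 10 CPM in EV; 8 genes had no count in EV, and 3 of these had such a mean in SF-mut. Every EV library was more than 2 times deeper than every SF-mut library, and the part of depth in this asymmetry, and in that of the non-overlapping genes, was not tested. Of the 15, TCF3 and MDK, which encodes the growth factor midkine, were also at 0 in SF-Nte, and none was at 0 in FL or FL-mut. BCOR, a corepressor gene, was even in EV at 22.0, 22.6 and 21.4 CPM and was at least 10.4-fold lower in SF-mut (edgeR adjusted p = 0.451).

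On the higher side no gene but ZBTB18 passed edgeR's test with the filter on low counts. DESeq2 called 7 higher genes: ZBTB18, BNIP3 (DESeq2 adjusted p = 0.00598), SRSF6 (0.0107), PMS1, RUBCN and BNIP3P1 (0.0422 each) and TOM1L1 (0.0463). BNIP3, a mitophagy receptor made under low oxygen, stood at 9.502, 6.557 and 11.57 CPM in EV and at 27.78, 376 and 34.86 CPM in SF-mut (3.949 ± 0.975, edgeR adjusted p = 0.407). All SF-mut libraries were above EV, and replicate 2 was over 10 times above the other two. Its pseudogene BNIP3P1 followed the same libraries, at 13.07, 200.3 and 24.6 CPM in SF-mut, and reads may be split between the pair. SRSF6, a splicing factor, was even among replicates, at 25, 18.94 and 29.38 CPM in EV and 75.17, 64.73 and 57.41 CPM in SF-mut (1.427 ± 0.377, edgeR adjusted p = 0.421).

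PMS1, a mismatch repair gene, stood at 12, 25.5 and 25.82 CPM in EV and at 44.12, 111 and 92.27 CPM in SF-mut (1.958 ± 0.532, edgeR adjusted p = 0.421). RUBCN, which encodes the autophagy inhibitor Rubicon, stood at 5.001, 7.285 and 16.03 CPM against 26.14, 40.07 and 57.41 CPM (2.136 ± 0.582, edgeR adjusted p = 0.421). TOM1L1, an endosomal sorting adaptor, stood at 59.01, 75.04 and 97.05 CPM against 140.5, 194.2 and 231.7 CPM (1.293 ± 0.365, edgeR adjusted p = 0.437). The groups did not overlap for these genes, also picked by low p, which held for 2.9% of all genes on the higher side. ARHGAP12 had no count in EV and stood at 29.41, 15.41 and 0 CPM in SF-mut. With no filter on low counts BNIP3, BNIP3P1 and ARHGAP12 passed edgeR's test too (adjusted p = 5.11e-06, 0.00272 and 0.0064). So did COX5B and PSMD8, described below (edgeR adjusted p = 2.3e-07 and 4.33e-07), whose changes turned negative without SF-mut replicate 2. Without that library, and with the filter, the change was 1.733 for BNIP3 and 1.502 for BNIP3P1 (edgeR adjusted p = 0.895 and 0.955).

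Among 31 lists of genes, 28 held no member past the threshold in edgeR's test. ZBTB18 gave the call in the list of its corepressor partners, and SQSTM1 those in the NRF2-type antioxidant list and in the list of autophagy and lysosome. DESeq2 also called members of other lists, among them BNIP3 (hypoxia), TCF3 (E-proteins) and CCND3 (cell cycle, adjusted p = 0.00847). The lists are therefore described by their median log2 fold change beside that of all genes (-0.02), and by their members at an unadjusted p under 0.05 beside the shares of all genes at that threshold (1.6% higher, 3.77% lower).

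Genes of the hypoxia response had the highest median of the lists. Of 14 members tested, 13 lay above 0, with a median of 0.77, and the median stayed between 0.42 and 1.14 with any 1 library left out. BNIP3 and HIF1A were the 2 members at an unadjusted p under 0.05. HIF1A, the oxygen-regulated transcription factor itself, stood at 33.51, 65.57 and 110.4 CPM in EV and at 88.24, 166.4 and 252.2 CPM in SF-mut (1.277 ± 0.479, edgeR adjusted p = 0.776), so the groups overlapped. DDIT4 was at 0, 89.39 and 18.45 CPM in SF-mut and VEGFA, the angiogenic growth factor, at 24.51, 0 and 92.27 CPM, and PDK1, the kinase that restrains pyruvate oxidation, was the 1 member below 0 (-1.43). The SF-mut libraries thus did not share one order across the list, and the high values of BNIP3 and DDIT4 came from replicate 2. Nor was the rise particular to the mutant: the median of SF-mut minus SF-Nte was -0.49 in this list and 0.05 over all genes.

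**Figure D3:**
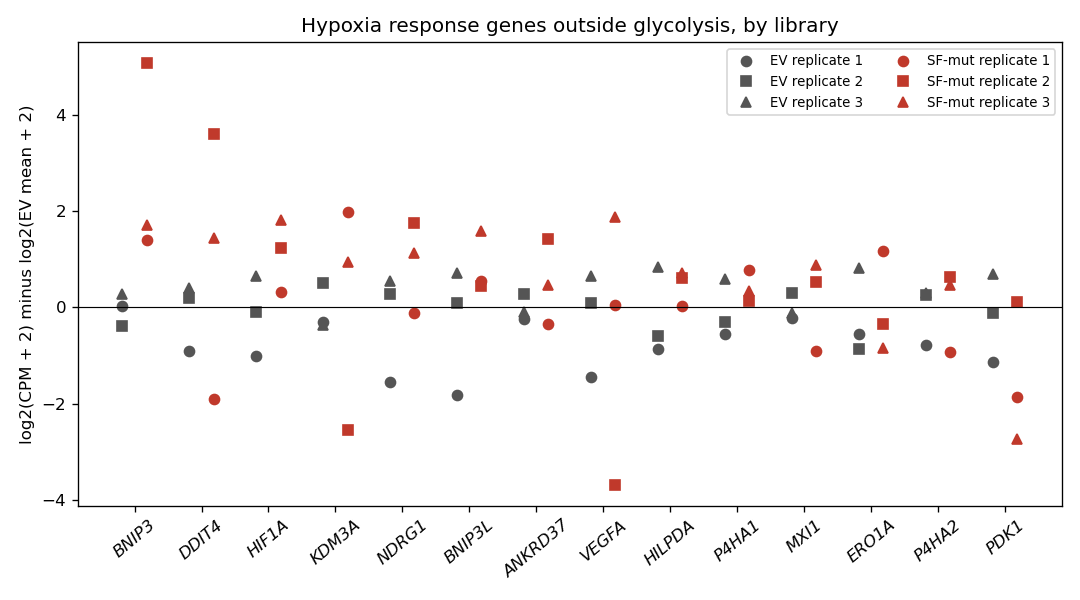
Hypoxia response genes outside glycolysis, ordered by fitted change, in the 3 EV (grey) and 3 SF-mut (red) libraries as log2(CPM + 2) minus the log2 of the EV mean + 2; 0 is the EV mean. Most SF-mut points lie above 0, but only for BNIP3 do all SF-mut libraries exceed all EV libraries.

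Glycolysis went with a smaller median of 0.31, 13 of 17 members above 0, and a range of 0.17 to 0.38 with 1 library left out. PGK1, which makes ATP in glycolysis, stood at 488.1, 582.1 and 951.8 CPM in EV and at 1204, 875.4 and 1388 CPM in SF-mut (0.78 ± 0.292, edgeR adjusted p = 0.776), and PFKFB3, which makes the activator of phosphofructokinase, at 2.501, 2.914 and 7.123 CPM against 19.61, 12.33 and 20.5 CPM (2.073 ± 0.928, edgeR adjusted p = 0.906). Only PFKFB3 had groups that did not overlap. SF-Nte held PGK1 at 1456, 1466 and 1345 CPM, and SF-mut differed from it by -0.3 ± 0.29. The median of SF-mut minus SF-Nte over the glycolysis list was -0.13.

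The lists of sterol and fatty acid genes held no gene past the threshold. The regulators of the SREBP pathway and of sterol uptake had a median of -0.47, with 2 of 12 above 0 and none at an unadjusted p under 0.05. SREBF1, which encodes a transcription factor of lipid synthesis, stood at 12, 13.11 and 24.04 CPM in EV and at 8.17, 0 and 4.101 CPM in SF-mut (-1.82 ± 1.097, edgeR adjusted p = 0.942). The enzymes of cholesterol synthesis had a median of -0.01, with 8 of 17 above 0, and those of fatty acid synthesis and desaturation one of -0.13. SCD, the desaturase that makes oleate, stood at 30.01, 61.2 and 275.1 CPM in EV and at 44.12, 49.32 and 71.76 CPM in SF-mut, and EV replicate 3 alone was apart.

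The NRF2-type antioxidant genes lay low: 17 of 22 were below 0, with a median of -0.40 and a range of -0.79 to -0.19 with 1 library left out. SQSTM1 was the 1 member that passed edgeR's test, and GSR, TXN and SLC7A11 had an unadjusted p under 0.05. GSR passed with DESeq2 (adjusted p = 0.00921) and with no filter in edgeR (adjusted p = 0.0168). It did not pass in edgeR on SF-mut and EV alone (adjusted p = 0.919). SLC7A11, the cystine importer, stood at 59.51, 134.8 and 46.3 CPM in EV and at 13.07, 21.58 and 32.81 CPM in SF-mut (-1.838 ± 0.626, edgeR adjusted p = 0.674), and TXN, which encodes thioredoxin, at 842.2, 1241 and 813.8 CPM against 648.7, 477.8 and 715.6 CPM (-0.652 ± 0.248, edgeR adjusted p = 0.784). These 4 genes had groups that did not overlap, as had 7.68% of all genes on the lower side. NQO1, a standard target of NRF2, was mixed at 973.2, 625.1 and 267.1 CPM in EV and 258.2, 1011 and 313.7 CPM in SF-mut. The NF-kB targets and cytokines also lay low, with none of 6 members above 0, a median of -0.45 and medians from -1.35 to -0.50 with 1 library left out, where 7 or 8 members were tested. CXCL8, which encodes interleukin-8, was the 1 member at an unadjusted p under 0.05, at 16.003, 72.122 and 0 CPM in EV and 6.536, 0 and 2.05 CPM in SF-mut (-3.099 ± 1.331, edgeR adjusted p = 0.863), and its groups overlapped. In the list of autophagy and lysosome, 13 of 29 members were above 0, with a median of -0.12.

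The mesenchymal genes, which ZBTB18 is known to repress, were centred on EV, with 13 of 25 above 0 and a median of 0.00. VIM, which encodes vimentin, stood at 521.1, 333.7 and 785.3 CPM in EV and at 737, 520.9 and 701.2 CPM in SF-mut (0.26 ± 0.369). S100A6, a calcium-binding protein gene counted in both this list and that of S100, annexin and galectin genes, stood at 12727, 13753 and 13131 CPM in EV and at 7781, 8008 and 8843 CPM in SF-mut. Its groups were compact and apart, and the change of -0.685 ± 0.22 had an edgeR adjusted p of 0.604. The list of S100, annexin and galectin genes had a median of 0.28, with 12 of 18 above 0. The median was 0.03 without SF-mut replicate 2 and 0.06 without SF-mut replicate 1, with 9 of 18 above 0 in both. The list of the extracellular matrix and its proteases had a median of -0.21, with 8 of 19 above 0.

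Of the cell cycle genes, CCND3, which encodes cyclin D3, stood at 214.6, 206.2 and 106.8 CPM in EV and at 29.41, 36.99 and 24.6 CPM in SF-mut (-2.544 ± 0.652, edgeR adjusted p = 0.409). Its groups were apart, and SF-Nte was as low, at 11.56, 33.87 and 0 CPM. The list of G1 and S phase as a whole had a median of -0.10 and that of G2 and mitosis one of 0.05. EIF5B, an initiation factor, stood at 359.1, 268.8 and 310.7 CPM in EV and at 209.2, 120.2 and 192.7 CPM in SF-mut (-0.84 ± 0.266, edgeR adjusted p = 0.594). EIF3F, also of translation initiation, went the other way (2.141 ± 0.67, edgeR adjusted p = 0.579). Of the translation factors, 1 was higher and 3 were lower at an unadjusted p under 0.05 in edgeR, and together they had a median of -0.11.

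Several medians turned when SF-mut replicate 2 was left out. That of the lipid droplet genes went from 0.53 to -0.09 and turned with no other library. The median of the ER chaperones went from 0.15 to -0.44 and also turned without EV replicate 2 (-0.18) and SF-mut replicate 3 (-0.04). The ATF4 amino acid response went from 0.26 to -0.15 and also turned without SF-mut replicate 3 (-0.20) and EV replicate 1 (-0.04), and interferon response and MHC class I went from 0.22 to -0.06 and also turned without EV replicate 1 (-0.04). COX5B, a subunit of cytochrome oxidase, stood at 29.41, 1140 and 18.45 CPM in SF-mut, and PSMD8, a proteasome subunit, at 60.46, 1261 and 32.81 CPM. FL-mut replicate 2 was high in the same genes, at 887.3 CPM for COX5B and 1606 CPM for PSMD8. Across 3799 genes the deviations of these 2 libraries from their group means correlated at 0.58. What these 2 libraries share was not tested.

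**Figure D4:**
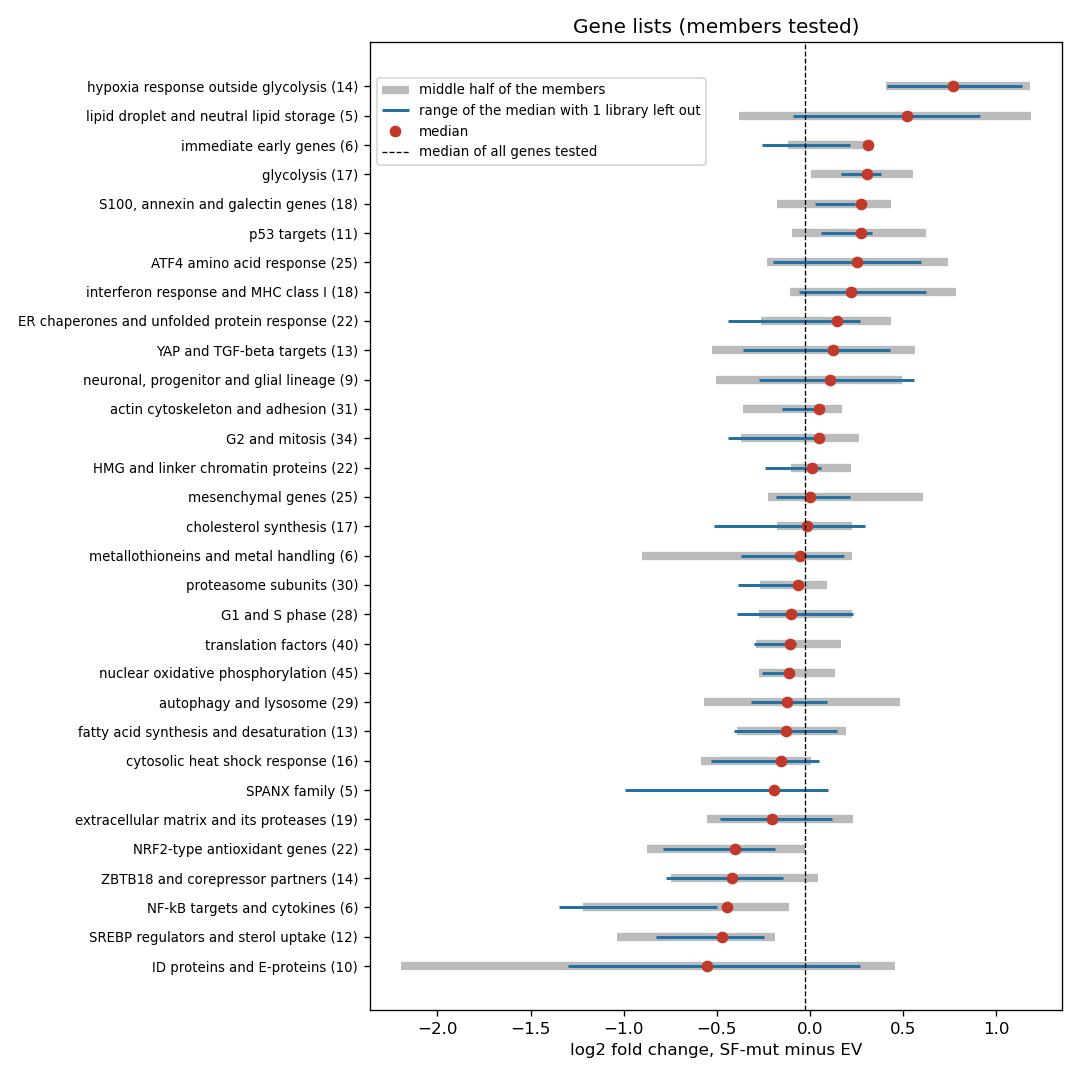
Median log2 fold change of SF-mut minus EV in 31 gene lists (red points; number of members tested in brackets), with the interquartile range of the members (grey) and the range of the median when 1 of the 6 libraries is left out (blue; each such fit keeps its own genes). The blue range lies above the dashed median of all genes for the hypoxia, glycolysis, p53 and S100 lists. It lies below that line for the NF-kB, SREBP, NRF2, ZBTB18 partner, oxidative phosphorylation, proteasome and translation lists, and the other ranges reach it. The dashed line is from the fit of all libraries, and with 1 library left out the median of all genes ran from -0.161 to -0.008. Without SF-mut replicate 2 it was -0.082, with proteasome at -0.054 and translation at -0.083. The blue range misses the red point for NF-kB (range -1.35 to -0.50, point -0.45), S100, oxidative phosphorylation, immediate early, actin, and G2 and mitosis.

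Markers of the labelled cells were checked alongside. The summed glial and glioma markers ranged from 507 to 1065 CPM in EV and from 1044 to 1227 CPM in SF-mut. VIM and CD44 carried most of these sums. Of the 5 members tested, 3 lay above 0 and 2 below. SOX2 was lower without overlap, at 17.5, 10.93 and 26.71 CPM in EV and 4.902, 3.082 and 4.101 CPM in SF-mut. Its change was -2.112 ± 0.914 (edgeR adjusted p = 0.881). EGFR was also lower, at 8.002, 7.285 and 9.794 CPM against 3.268, 3.082 and 0 CPM. The SF-mut levels of both genes rest on a few reads. S100B was at 0 in all 6 libraries, and GFAP was at 0 in SF-mut and at most 1.457 CPM in EV. Immune markers reached at most 18.5 CPM in SF-mut. Epithelial markers summed to 22.9 to 151 CPM in SF-mut against 15.3 to 41.0 CPM in EV, with the highest value in replicate 2. Neuron markers summed to 6.54 to 36.9 CPM in SF-mut against 2.0004 to 6.2324 CPM in EV, most of it GAD1 in replicates 2 and 3 (18.49 and 26.65 CPM, against at most 3.561 CPM in EV). GAD1 also stood at 15.41, 26.35 and 0 CPM in SF-Nte and at 18.18, 13.58 and 10.32 CPM in FL-mut. Endothelial markers summed to 6.16 to 10.3 CPM against 9.47 to 23.1 CPM in EV, and serum or erythroid markers to 0 in SF-mut and at most 2.5 CPM in EV. The part of these markers in the results was not tested. Fewer cells of a state and less RNA per cell cannot be told apart in such bulk libraries.

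No gene was called between the short forms with and without the mutation. In SF-mut against SF-Nte 0 of 6767 genes passed edgeR's test, 564 (8.33%) had an unadjusted p under 0.05, and DESeq2 called 4. Of those 564 genes, 396 were higher in SF-mut (5.85%) and 168 lower (2.48%). HCCS, which attaches haem to cytochrome c, stood at 9.804, 12.33 and 14.35 CPM in SF-mut and had no count in SF-Nte, and TRIP10, an adaptor of CDC42, stood at 17.97, 92.47 and 24.6 CPM and had none either (edgeR adjusted p = 0.574 for both). On the lower side CDIPT, the phosphatidylinositol synthase, had no count in SF-mut and stood at 5.778, 18.82 and 24.9 CPM in SF-Nte (edgeR adjusted p = 0.574), and MED20, a Mediator subunit, stood at 14.71, 6.165 and 16.4 CPM in SF-mut and 57.78, 62.1 and 34.86 CPM in SF-Nte (-2.005 ± 0.584, edgeR adjusted p = 0.574). A p that misses the threshold does not show that the short forms act alike, and the median change was 0.36 in the third of genes with the highest GC content and -0.08 in that with the lowest.

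SF-mut differed from the full-length protein in a larger number of genes. Of 6767 genes, 33 (0.488%) differed between SF-mut and FL, 15 higher (0.222%) and 18 lower (0.266%). With the replicate number as a block, which pairs these groups, 52 differed, 26 in each direction. In the unblocked fit, leaving out SF-mut replicate 2 gave 15 genes, SF-mut replicate 3 gave 5, and FL replicate 2 gave 6. S100A4, a calcium-binding protein tied to cell motility, stood at 310.5, 450 and 330.1 CPM in SF-mut, 237.6, 354.1 and 671.3 in EV and 13.18, 7.463 and 36.78 in FL. LGALS1, which encodes galectin-1, stood at 2085, 4546 and 2344 CPM in SF-mut, 2375, 1300 and 2259 in EV and 201.8, 83.34 and 138.4 in FL. The SF-mut libraries lay within or above the EV range for both genes and far from FL.

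Against FL, S100A4 was higher in SF-mut by 4.228 ± 0.524 (edgeR adjusted p = 0.000961) and LGALS1 by 4.398 ± 0.476 (edgeR adjusted p = 0.000219). HMGN3, a nucleosome-binding protein, was at 377.5, 409.9 and 512.6 CPM in SF-mut, 482.1, 389.8 and 440.7 in EV and 43.69, 62.19 and 39.69 in FL, which is a difference of 3.161 ± 0.292 from FL (edgeR adjusted p = 3.49e-05). From EV, HMGN3 differed by -0.01, with a 95% interval of -0.576 to 0.548. S100A6, which stood below EV in SF-mut, was still 2.535 ± 0.232 above FL (edgeR adjusted p = 3.49e-05). The metallothionein MT2A (2.303 ± 0.339, edgeR adjusted p = 0.00657) and ANXA2, which encodes annexin A2 (1.631 ± 0.267, edgeR adjusted p = 0.0156), were also higher in SF-mut than in FL, as were S100A2, SPP1, CSRP1, TPM4 and PMP22. FL libraries were deeper than SF-mut libraries, at 803316 to 1393060 counts. The median change from FL was 0.28 in the third of genes with the highest GC content and -0.19 in that with the lowest. The part of depth and GC content in these calls was not tested.

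On the lower side of that comparison were SQSTM1, MRNIP, IGF2R and GSR, and 5 SPANX genes. None of the 18 lower calls was left without SF-mut replicate 3 or without FL replicate 2, and 3 lower calls stood without SF-mut replicate 2. SPANX genes are near-identical cancer-testis genes on chromosome X, so their reads may be split between copies. SPANXB1 stood at 14.71, 12.33 and 4.101 CPM in SF-mut, 16, 14.57 and 8.013 in EV and 103.3, 240.1 and 112.3 in FL, and SF-mut minus FL was -3.847 ± 0.677 (edgeR adjusted p = 0.0177). It differed from EV by -0.32, with a 95% interval of -1.745 to 1.111. The median change of the 5 SPANX genes from EV was -0.19, and it ranged from -0.99 without SF-mut replicate 1 to 0.10 without SF-mut replicate 2. AFP, an oncofetal plasma protein gene, stood at 27.78, 0 and 14.35 CPM in SF-mut, 91.52, 51 and 30.27 in EV and 204.6, 162.9 and 193.6 in FL (-3.613 ± 0.72 against FL, edgeR adjusted p = 0.0281).

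**Figure D5:**
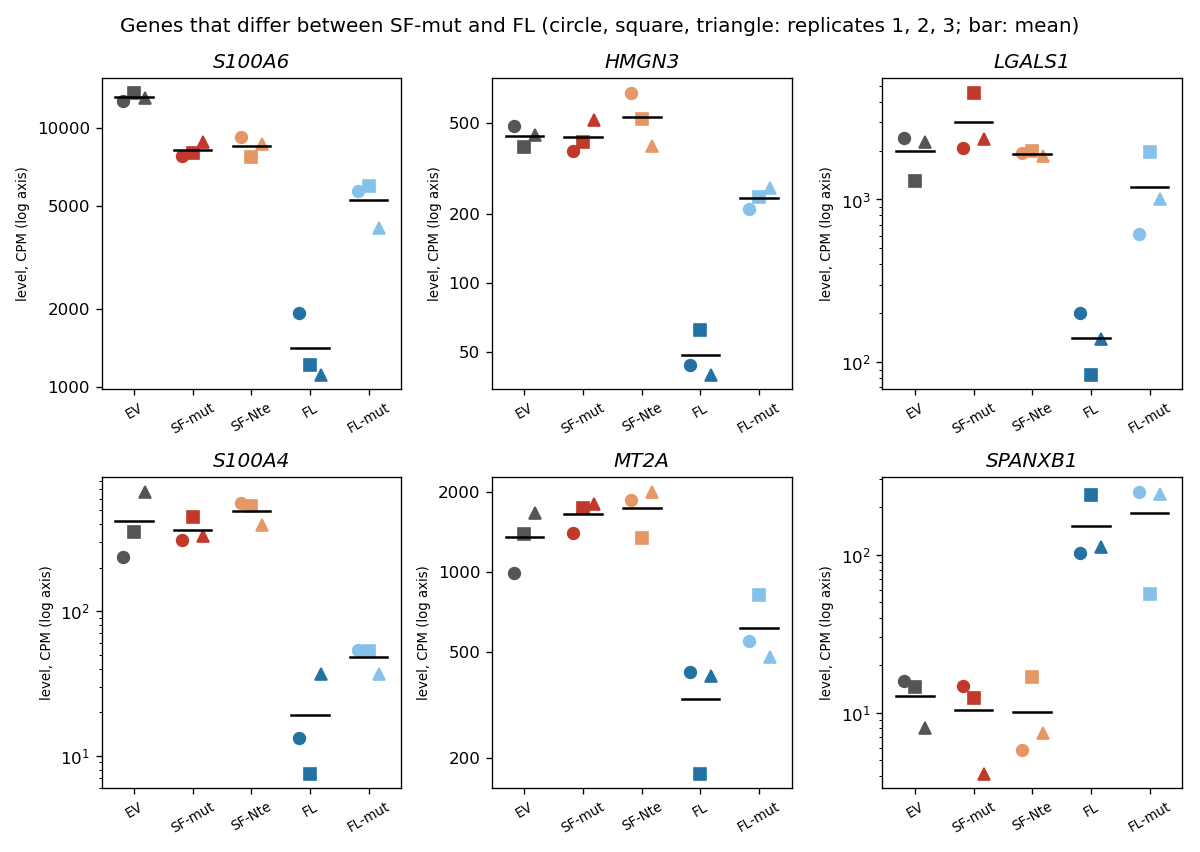
Levels of S100A6, HMGN3, LGALS1, S100A4, MT2A and SPANXB1 in the 15 libraries, in CPM on a log axis, by group; circles, squares and triangles are replicates 1, 2 and 3, and the bar is the mean. SF-mut lies apart from FL for all 6 genes and overlaps EV for all but S100A6, where it lies below EV and above FL.

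Against the full-length mutant, 11 genes differed (0.163%), 3 higher (0.0443%) and 8 lower (0.118%). S100A4 was higher in SF-mut by 2.923 ± 0.488 (edgeR adjusted p = 0.0271), and LRMDA, a gene of melanocyte differentiation, stood at 111.1, 126.4 and 192.7 CPM against 4.04, 10.19 and 5.898 CPM in FL-mut (4.409 ± 0.792, edgeR adjusted p = 0.0282). ZMYM3, a zinc finger gene, had no count in FL-mut and stood at 16.34, 33.91 and 38.96 CPM in SF-mut, where EV was at 8.002, 37.15 and 26.71 CPM. The 8 lower genes were the 5 SPANX genes, TCF3, MDK and MICA, a ligand of the NKG2D receptor, which stood at 205.9, 55.48 and 166.1 CPM in SF-mut and 627.1, 568.2 and 1600 in FL-mut (-2.693 ± 0.479, edgeR adjusted p = 0.0282). No call was left without SF-mut replicate 2, without SF-mut replicate 3, without FL-mut replicate 1 or without FL-mut replicate 3.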

How the data were processed

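The authors deposited 1 table of whole-number counts per gene symbol for the 15 libraries, not normalised; per the labels' protocols, Trizol-extracted RNA was enriched for mRNA on beads and read as PCR-amplified cDNA from Oxford Nanopore kits, which here carry no molecular identifiers. Per the submitters' processing notes the build was GRCh38; aligner, counter, annotation and strand setting are not stated there or in the labels. PCR bias for short or GC-rich cDNA can therefore alter a gene's share, and floors of 3 counts cover counting error only.

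The test was edgeR's quasi-likelihood F test (edgeR 4.0.16, R 4.3.3). filterByExpr, with a minimum count of 10 and a minimum total of 15, left 6767 of 18485 genes and removed 11718. After TMM scaling, all 15 libraries entered 1 robust fit with a coefficient for each group (10 residual degrees of freedom). P-values were Benjamini-Hochberg adjusted over all genes tested, with 0.05 as the threshold. SEs were derived as the absolute log2 fold change over the square root of the quasi-likelihood F, and the 95% intervals were built from these SEs. Alternatives were relative log expression scaling, no filter, a stricter filter, DESeq2 1.42.0, both groups alone, non-robust dispersion, a replicate block and leaving out each library. The test script was checked on simulated data with changes set in SF-mut against EV. It called 0 of 45 2-fold, 9 of 45 4-fold, 39 of 46 16-fold and 37 of 48 64-fold changes. False calls were 4 of 6109 unchanged genes. Most changes of 4-fold or less were thus missed there. Positions, lengths and GC content came from GENCODE 29, promoters from RefSeq on GRCh38.p14.

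Groups and replicate numbers come from the sample titles. No 2 libraries of a group agreed within sampling noise. Same-numbered libraries of SF-mut and FL deviated from their group means together (r = 0.13, 0.11 and 0.27, each over 0.1), on the data alone. The replicate number was a block only in an alternative fit. All changes, SEs and adjusted p-values given against FL come from the unblocked fit. Against FL-mut the r were 0.48, 0.58 and 0.07, the last under 0.1. Nor did all 3 pairs pass 0.1 against EV or SF-Nte. Libraries of unlike number also reached 0.35 (EV replicate 1 with SF-mut replicate 2) and 0.33 (FL-mut replicate 1 with SF-mut replicate 3). Named genes were ZBTB18, up to 10 called genes a direction (10 or more counts throughout the higher group), up to 4 called members of each list or its 2 of lowest p, up to 5 per direction for SF-Nte and FL-mut, and the 8 of lowest p where fewer than 5 were called; TXN, SLC7A11, MICA, DDIT4, VEGFA, PDK1, VIM, NQO1, BCOR, MDK and the genes named against FL were chosen after their values were seen. The members and the 31 lists were chosen with earlier results of these data known.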

Additional observations from a re-analysis of the deposited data

How the results depend on the processing

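The counts of called genes depended on the filter and the tool. SF-mut against EV gave 4 genes; relative log expression scaling, the stricter filter and non-robust dispersion gave 4 each, the replicate block 5, no filter 81, DESeq2 26, the 2 groups alone 2 (SQSTM1 and MRNIP were lost), and leaving out 1 library 1 to 5, with only ZBTB18 left when an SF-mut library was out. SF-mut against SF-Nte gave 193 genes with no filter, 4 with DESeq2 and 0 otherwise. SF-mut against FL-mut gave 134 with no filter, 18 with the stricter filter, 117 with DESeq2, 0 with the 2 groups alone, 12 with the replicate block, and 0 to 16 with 1 library left out. SF-mut against FL gave 410 with no filter, 59 with the stricter filter, 260 with DESeq2, 9 with the 2 groups alone, 52 with the replicate block, and 5 to 38 with 1 library left out. The numbers did not pair SF-mut with EV (r = -0.01, -0.06 and 0.4). The cause of these moves was not tested. ZBTB18 passed under every alternative run.

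Of 868 values of 68 named genes in SF-mut against EV under the alternatives, 819 kept direction and side of the threshold, 11 lost the call, 29 gained one and 9 reversed. The reversals came from 1 library each. CCL2 ranged from -1.933 to 0.526 and SCD from -1.614 to 0.199 with 1 library left out, the highest without EV replicate 3. Without SF-mut replicate 2 the sign turned for 7 genes, whose ranges were -0.157 to 4.196 (ISG15), -0.18 to 2.437 (PLIN3), -0.969 to 1.709 (BSCL2), -0.607 to 4.15 (COX5B), -0.172 to 3.498 (PSMD8), -0.025 to 1.228 (H3F3A) and -0.687 to 0.061 (SPANXD). Relative log expression scaling moved the median of all genes from -0.02 to 0.04 and turned the medians of autophagy (0.026), cholesterol synthesis (0.047) and metallothioneins (0.020). At 315693 to 597414 counts, SF-mut levels under about 10 CPM rest on a few reads.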
